A study of Homo sapiens with 4 samples.

Results

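Cadherins, vimentin and regulators of the epithelial-mesenchymal transition (EMT) were examined in 2 human colorectal cancer cell lines. The 10 genes were chosen by name and not by a cutoff on measured values, though with earlier results of these data known: the cadherins CDH1, CDH2, CDH3 and CDH17, the adhesion molecule EPCAM, the mesenchymal proteins VIM and FN1, and the transcription factors ZEB1, ZEB2 and SNAI2. All 10 were found among the 61544 genes of the count table. The 4 RNA-seq libraries were HT29 cells treated with lipopolysaccharide (LPS) at 1 ug/mL for 24 h, HT29 control cells, HCT116 cells treated with LPS at the same dose and time, and HCT116 control cells, with 1 library of each. LPS, a cell wall component of Gram-negative bacteria, was used by the study to make inflammatory models of intestinal epithelium. Both lines were grown in the same medium with serum. They are established cancer lines and stand for no normal mucosa.

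Classical cadherins are calcium-dependent adhesion proteins that hold neighbouring cells together and are anchored to actin through catenins. Epithelial cells carry mainly E-cadherin, and in EMT they lose it and gain N-cadherin, the intermediate filament protein vimentin and the matrix protein fibronectin. The zinc finger factors of the ZEB and SNAI families repress CDH1 by binding E-box motifs in its promoter, and microRNAs of the miR-200 family repress ZEB1 and ZEB2 in turn. The intestine also makes LI-cadherin, encoded by CDH17, which has a short cytoplasmic tail that does not bind catenins.

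Sequences of the ZEB and miR-200 loop are shown because members of both sides were read in these libraries. The mature miRNAs themselves were not measured. Their sequences are from RefSeq on GRCh38.p14, written 5′ to 3′ with the seed (bases 2 to 8) in capitals, and all lie on the plus strand. The first 3 share the seed AAUACUG and the last 2 share AACACUG.
hsa-miR-200b-3p, chr1:1167160-1167181: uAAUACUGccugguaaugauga
hsa-miR-200c-3p, chr12:6963742-6963764: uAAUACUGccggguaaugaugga
hsa-miR-429, chr1:1169055-1169076: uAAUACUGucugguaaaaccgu
hsa-miR-200a-3p, chr1:1167916-1167937: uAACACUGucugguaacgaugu
hsa-miR-141-3p, chr12:6964155-6964176: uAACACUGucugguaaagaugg

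The 3′ untranslated region (UTR) of the canonical ZEB1 transcript in GENCODE 44 is 2540 bases long and held 6 matches to the first seed (CAGTATT) and 3 to the second (CAGTGTT). Among the 4575 UTRs at least as long, 0.0437% held as many or more CAGTATT matches. The UTR of ZEB2, at 5370 bases, held 5 and 4 matches. Of the 1121 UTRs at least as long, 0.624% held as many or more CAGTATT matches. For CAGTGTT, as many or more were held by 4.13% of UTRs at least as long for ZEB1 and 4.19% for ZEB2. Each of these shares counts the UTR of the gene itself. One ZEB1 site of each kind and one ZEB2 site are shown with the 15 bases before them and the seed match in capitals.
ZEB1, UTR bases 369 to 375: attgttttatcttatCAGTATT
ZEB1, UTR bases 782 to 788: caaaatcatcagaatCAGTGTT
ZEB2, UTR bases 392 to 398: cgcactaccatacatCAGTATT
A match says only that these letters stand in the UTR.

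The 250 bases before the start of 3 genes are shown in the same way, since VIM and FN1 are the mesenchymal members that could be tested and MIR200BHG is the host gene of the chromosome 1 miR-200 cluster. The search covered, on both strands, the E-box of ZEB and SNAI factors (CACCTG, other strand CAGGTG), the cyclic AMP response element (CRE, TGACGTCA) and the GC box of SP factors (GGGCGG, other strand CCGCCC). All matches are in capitals, and neighbouring GC boxes can overlap. Of 35116 promoters of this length, 17.5% held the E-box, 1.65% the CRE and 42.6% the GC box.
VIM, GRCh38.p14 chr10:17227991-17228240, plus strand: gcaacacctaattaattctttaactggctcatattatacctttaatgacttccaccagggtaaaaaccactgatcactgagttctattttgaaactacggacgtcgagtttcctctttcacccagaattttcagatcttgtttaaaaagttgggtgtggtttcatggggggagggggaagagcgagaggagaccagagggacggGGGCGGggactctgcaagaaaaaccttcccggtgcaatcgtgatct
FN1, GRCh38.p14 chr2:215436069-215436318, minus strand: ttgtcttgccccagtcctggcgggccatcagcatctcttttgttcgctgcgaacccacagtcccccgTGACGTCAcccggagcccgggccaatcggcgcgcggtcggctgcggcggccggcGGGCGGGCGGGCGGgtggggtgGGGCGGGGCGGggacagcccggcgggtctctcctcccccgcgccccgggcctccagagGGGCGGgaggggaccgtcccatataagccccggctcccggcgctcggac
MIR200BHG, GRCh38.p14 chr1:1162627-1162876, plus strand: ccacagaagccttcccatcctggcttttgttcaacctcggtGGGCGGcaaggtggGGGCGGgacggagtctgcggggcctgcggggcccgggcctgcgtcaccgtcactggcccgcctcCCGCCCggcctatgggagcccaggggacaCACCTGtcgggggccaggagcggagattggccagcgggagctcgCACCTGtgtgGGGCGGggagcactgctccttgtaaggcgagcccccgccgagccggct
The MIR200BHG window held 2 E-boxes, which begin 102 and 58 bases before the start. The FN1 window held a CRE, beginning 183 bases before the start, and 6 GC boxes. The VIM window held 1 GC box. No E-box of these letters stood in the VIM or FN1 window.

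The gene counts of the 4 libraries summed to between 19105058 and 21268959. Mitochondrial transcripts took 4.29% and 3.75% of them in HT29 with LPS and HT29 control, and 7.16% and 5.01% in HCT116 with LPS and HCT116 control. Values are raw read counts, counts scaled to library size by the TMM method of edgeR (CPM), or, to set genes beside each other, TPM, in which counts are also scaled to gene length. All markers of the epithelial list except KRT20, which was at 0 in every library, were read in at least 1 line, and KRT8, KRT18 and KRT19 were abundant in all 4 libraries. VIL1 and LGALS4 had at least 2637 counts in each HT29 library and at most 10 in HCT116. Of 10 fibroblast markers 6 were at 0 in all libraries, but COL1A1 had 59, 81, 1999 and 2225 counts in HT29 LPS, HT29 control, HCT116 LPS and HCT116 control. The 7 endothelial markers summed to 2.55 and 3.52 CPM in HT29 LPS and HT29 control, against 2.78 and 3.07 CPM in HCT116 LPS and HCT116 control. Of these CDH5 was at 0 in all 4, PECAM1 was called higher in HT29 (28, 39, 5 and 14 counts in the same order) and VWF lower (4, 5, 35 and 39 counts). The 8 leukocyte markers summed to 1044 and 1027 CPM in HT29 LPS and HT29 control, against 2.19 and 2.54 CPM in HCT116 LPS and HCT116 control. The defining markers CD3E and PTPRC had 0 and at most 2 counts, while CD14 was called higher in HT29 (137, 140, 9 and 12 counts). LYZ, the gene of lysozyme, made nearly all of the sum in HT29, with 20709 and 18532 counts in HT29 and 0 in both HCT116 libraries.

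The lines differed in all 7 members that could be tested. CDH1, EPCAM and CDH17 were higher in HT29, and CDH3, VIM, FN1 and ZEB1 were lower in HT29. Lines were compared over all 4 libraries with edgeR's quasi-likelihood test, with LPS as an added term and Benjamini-Hochberg adjustment over the 14523 genes that averaged at least 1 CPM. With 1 residual degree of freedom, the LPS and control libraries of a line stood in for replicates. The p-values rest on the spread left after the line and LPS terms, which edgeR estimates with information shared over all genes. They do not measure the spread between cultures. All 7 members that passed the filter were called at an adjusted p of 0.05, 3 higher and 4 lower in HT29. Of all genes tested, 36.8% were called higher and 39.5% lower in HT29, or 76.3% in either direction, with a median absolute log2 fold change of 0.76. Only 4 of the 7 members reached 1 CPM in each line (CDH1, CDH3, EPCAM and FN1). CDH17, VIM and ZEB1 passed through the line in which they were high, so their direction was set by the filter. CDH2, ZEB2 and SNAI2 did not pass.

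**Figure D1:**
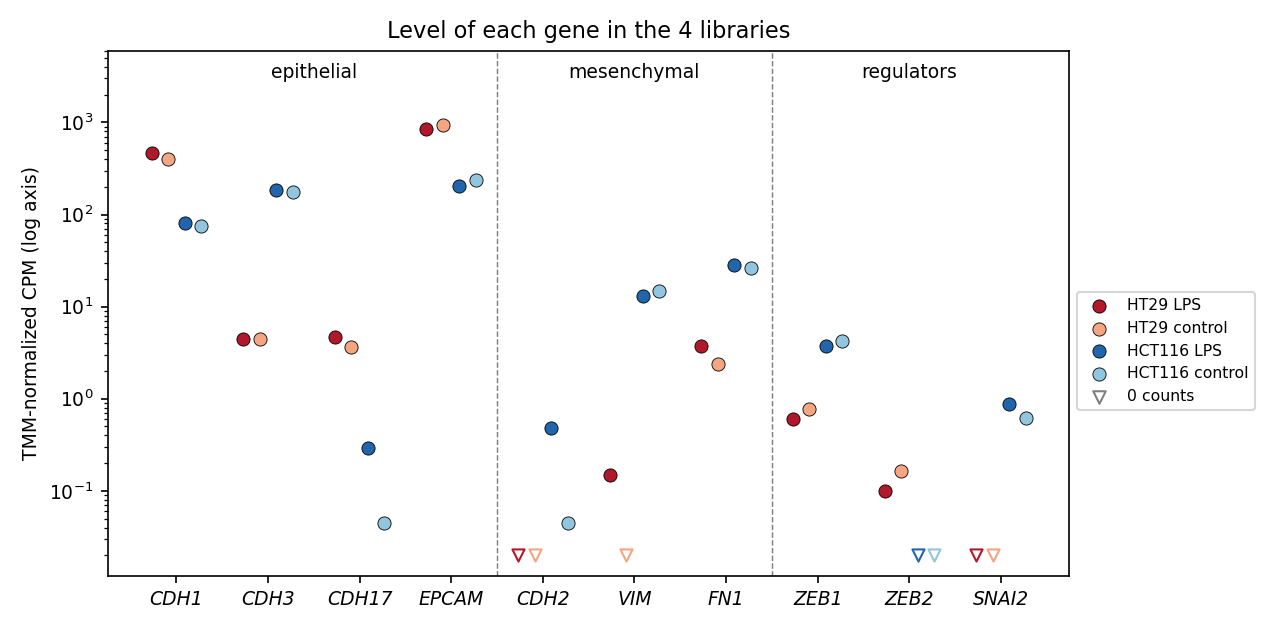
Level of the 10 genes in the 4 libraries as TMM-normalized CPM on a log axis, 1 point per library, with open triangles for 0 counts drawn at the foot of the axis. CDH1, CDH17 and EPCAM lie higher in both HT29 libraries and CDH3, VIM, FN1 and ZEB1 lie higher in both HCT116 libraries. CDH17, VIM and ZEB1 passed the filter through 1 line only, and 76.3% of all genes tested were called between the lines.

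Among the cadherins, CDH1, which encodes E-cadherin, the main adhesion protein of epithelial junctions, had 9307 counts in HT29 LPS and 7245 in HT29 control, against 1678 in HCT116 LPS and 1676 in HCT116 control. Both HT29 libraries lay well above both HCT116 libraries, which were nearly equal. CDH1 was 5.51-fold higher in HT29 (log2 fold change 2.46, SE 0.07, edgeR adjusted p = 8.9e-16). The gene (ENSG00000039068, hg38 chr16:68737292-68835537, plus strand) overlaps an antisense lncRNA, ENSG00000260798, which was at 0 in all 4 libraries.

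CDH3, which encodes P-cadherin, a classical cadherin of basal epithelium and placenta, went the other way. It had 88 and 81 counts in HT29 LPS and HT29 control, against 3791 and 3973 counts in HCT116 LPS and HCT116 control. It was 40.8-fold higher in HCT116 (log2 fold change of HT29 over HCT116 -5.35, SE 0.10, edgeR adjusted p = 3.2e-18), and 7.88% of the tested genes had a larger absolute difference. CDH3 (ENSG00000062038, hg38 chr16:68636189-68727468) lies just upstream of CDH1 on the same strand, so that neighbouring genes differed in opposite directions between the lines. The antisense gene CDH3-AS1 shares 537 exon bases with it and had 0, 0, 14 and 4 counts in HT29 LPS, HT29 control, HCT116 LPS and HCT116 control.

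CDH17, which encodes LI-cadherin of the intestinal epithelium, was read at low level. It had 93 and 67 counts in HT29 LPS and HT29 control, against 6 and 1 counts in HCT116 LPS and HCT116 control. It passed the filter through HT29 only. It was 25.2-fold higher in HT29 (log2 fold change 4.66, SE 0.57, edgeR adjusted p = 8.7e-07). The ratio of the summed counts, 160 in HT29 and 7 in HCT116, had a 95% Clopper-Pearson interval of 12.2 to 65.1, which covers counting error only. The size of the difference rested on the few HCT116 counts, since the log2 fold change of CDH17 was 6.35 without HCT116 LPS and 3.79 without HCT116 control, each fitted with no LPS term.

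CDH2, which encodes N-cadherin of neural and mesenchymal cells, was not read in HT29 (0 and 0 counts) and had 10 counts in HCT116 LPS and 1 in HCT116 control. Against a floor of 3 counts over the 2 HT29 libraries, CDH2 was at least 3.26-fold lower in HT29, taking the 11 HCT116 counts as exact, and with their counting error the 95% interval of the fold began at 2.23. All but 1 of these counts came from HCT116 LPS, and the control libraries alone set no bound.

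Per length, the make-up of these 4 cadherins differed between the lines. CDH1 made 97.6% and 97.5% of their summed TPM in HT29 LPS and HT29 control, against 31.7% and 30.7% in HCT116 LPS and HCT116 control. CDH3 made 0.877% and 1.04% in HT29 LPS and HT29 control, against 68.0% and 69.2% in HCT116 LPS and HCT116 control. CDH17 made 1.53% and 1.41% in the HT29 libraries and at most 0.177% in HCT116. In TPM, CDH1 stood 111 and 94.1 times above CDH3 in HT29 LPS and HT29 control, and CDH3 stood 2.15 and 2.25 times above CDH1 in HCT116 LPS and HCT116 control. The summed TPM was 266 and 226 in HT29 LPS and HT29 control and 143 and 146 in HCT116 LPS and HCT116 control. CDH3 exceeded CDH1 per length in both HCT116 libraries and in neither HT29 library.

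**Figure D2:**
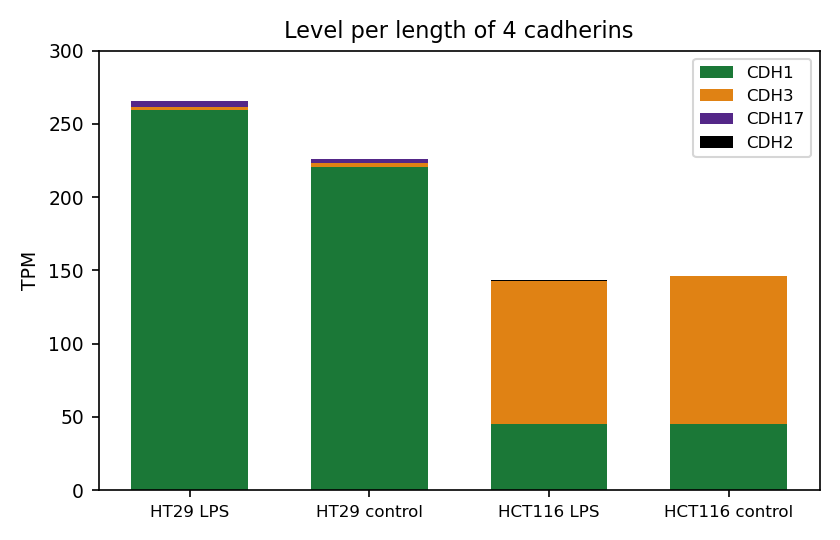
Stacked bars of the TPM (level per gene length) of CDH1, CDH3, CDH17 and CDH2 in each of the 4 libraries, 1 bar per library. The bars of HT29 consist almost wholly of CDH1, 97.6% and 97.5%, and CDH3 is the larger part of the HCT116 bars, 68.0% and 69.2%.

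Of the other cadherins, 5 of 23 passed the filter and all 5 were called, 1 higher and 4 lower in HT29. The share of all genes called was 76.3%, so a full count over 5 genes is near the background. Of the 4 lower ones, 3 (CDH15, CDH22 and CDHR2) passed through HCT116 only, so their direction was set by the filter. CDH15, the M-cadherin of muscle, had 2 and 0 counts in HT29 LPS and HT29 control, against 213 and 195 in HCT116 LPS and HCT116 control. CDH24 was also lower in HT29 (log2 fold change -1.83, SE 0.09), and CDHR3 was higher in HT29 (0.66, SE 0.25, edgeR adjusted p = 0.023). The remaining 2, CDH22 and CDHR2, were lower in HT29 and are named after their values were seen, CDH22 with 0 and 0 counts in HT29 LPS and HT29 control, against 156 and 189 in HCT116 LPS and HCT116 control. Of the 23 genes, 9 were at 0 in all 4 libraries.

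Cadherins act through catenins, and all 6 catenin genes tested were called, 5 higher and 1 lower in HT29, with a median log2 fold change of 0.54 beside -0.05 for all genes tested. The share of all genes called was 76.3%, so a full count over a list this short is near the background. CTNNB1, beta-catenin, which links cadherins to alpha-catenin and also carries Wnt signals, was the lower one (4323 and 4287 counts in HT29 LPS and HT29 control, against 8504 and 10306 in HCT116 LPS and HCT116 control). Its log2 fold change was -0.95 (SE 0.06). ARVCF and CTNND1, p120-catenin family members that bind the cadherin tail, were both higher in HT29, at 0.84 (SE 0.07 and 0.17). Of 8 desmosomal genes tested, 5 were higher and 2 lower in HT29 with a median of 0.67, and 1 of them, DSC3, passed the filter through HCT116 only. DSC3, a desmosomal cadherin, had 4 and 7 counts in HT29 LPS and HT29 control, against 383 and 434 in HCT116 LPS and HCT116 control. PKP4 (1.31, SE 0.07) and PERP (1.15, SE 0.07) were higher in HT29. The other lower gene, DSP, had a log2 fold change of -0.66 and is named after its value was seen.

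EPCAM, which encodes an epithelial adhesion molecule unrelated to cadherins, had the highest level per length of the 10 genes in every library. It had 1178 and 1298 TPM in HT29 LPS and HT29 control, against 281 and 354 TPM in HCT116 LPS and HCT116 control. The counts were 16906 and 17033 in HT29 LPS and HT29 control, against 4155 and 5292 in HCT116 LPS and HCT116 control. EPCAM was 4.07-fold higher in HT29 (log2 fold change 2.03, SE 0.07, edgeR adjusted p = 1.7e-14). In TPM it stood 4.54 and 5.88 times above CDH1 in HT29 LPS and HT29 control, against 6.19 and 7.90 times in HCT116 LPS and HCT116 control. The gene (ENSG00000119888) lies at hg38 chr2:47345158-47387601 on the plus strand.

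Among 12 partners, processing enzymes and relatives of EPCAM, 9 were higher and 2 lower in HT29, with a median log2 fold change of 1.36. The 10 at 1 CPM or more in each line, which leave out TSPAN8 and CLDN1, had 7 higher and 2 lower and a median of 0.97. Of all genes tested, 36.8% were called higher and 39.5% lower in HT29. TSPAN8, a tetraspanin, had 6136 and 6187 counts in HT29 LPS and HT29 control, against 0 and 2 in HCT116 LPS and HCT116 control. CLDN1, a tight junction claudin, had 938 and 976 counts in HT29 LPS and HT29 control, against 0 and 1 in HCT116 LPS and HCT116 control. ST14, the membrane protease matriptase, was higher in HT29 by 2.25 (SE 0.07). The lower genes were CD44, a hyaluronan receptor, at -0.17 (SE 0.07, edgeR adjusted p = 0.032), and the presenilin gene PSEN2 at -1.55, which is named after its value was seen.

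Of the mesenchymal proteins, VIM, which encodes vimentin, differed most. It had 3 and 0 counts in HT29 LPS and HT29 control, against 270 and 331 counts in HCT116 LPS and HCT116 control. The fitted log2 fold change was -7.36 (SE 0.45, edgeR adjusted p = 6.0e-11), and 4.91% of the tested genes had a larger absolute difference. The summed counts, 3 in HT29 and 601 in HCT116, gave a ratio of 178 for HCT116 over HT29, with a counting interval of 60.6 to 865. The fitted log2 fold change of VIM was -11.15 without HT29 LPS, which leaves HT29 at 0 and the size set by the fit, and -6.46 without HT29 control. In HCT116, vimentin transcript was at 8.56 and 10.4 TPM with LPS and in the control, or 18.9% and 23.2% of the CDH1 level of those libraries. These shares depend on the deposited gene lengths. The lengths were 5176 bases for VIM and 6076 for CDH1, against longest transcripts of 2666 and 4811 bases. VIM (ENSG00000026025, hg38 chr10:17228241-17237593, plus strand) shares 656 exon bases with VIM-AS1, which had 0, 1, 27 and 39 counts in HT29 LPS, HT29 control, HCT116 LPS and HCT116 control. Whether the counting used strand is not stated, and in the shared stretch reads of the 2 genes cannot be told apart.

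FN1, which encodes fibronectin, had 74 and 43 counts in HT29 LPS and HT29 control, against 583 and 585 counts in HCT116 LPS and HCT116 control. It was 9.03-fold higher in HCT116 (log2 fold change of HT29 over HCT116 -3.18, SE 0.19, edgeR adjusted p = 4.9e-11). Its level per length was at most 5.56 TPM in any library. The gene (ENSG00000115414) lies at hg38 chr2:215360440-215436073 on the minus strand. Of 7 fibronectin receptor genes tested, 5 were higher and 1 lower in HT29, with a median of 1.04. Of the 5 at 1 CPM or more in each line, which leave out ITGA5 and ITGB6, 4 were higher. The shares of all genes tested were 36.8% higher and 39.5% lower. ITGA5, the alpha subunit of the classical fibronectin receptor, was the lower one, with 6 and 0 counts in HT29 LPS and HT29 control, against 2180 and 2107 in HCT116 LPS and HCT116 control. ITGB6, an epithelial beta subunit that pairs with ITGAV, was higher in HT29 (6.27, SE 0.23), with 688 and 632 counts in HT29 LPS and HT29 control, against 8 and 11 in HCT116 LPS and HCT116 control. ITGB5 (1.63, SE 0.07) was also higher in HT29.

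Other mesenchymal markers did not all differ in one direction. Of 28 tested, 18 were lower and 8 higher in HT29, with a median log2 fold change of -2.86, which was the same when the 2 genes at 0 in HT29 were set to their bounds. Of these 28, 8 passed the filter through HCT116 only and 3 through HT29 only, so their direction was set by the filter. Among the 17 at 1 CPM or more in each line, 11 were lower and 5 higher in HT29, with a median of -1.93. Of all genes tested, 39.5% were called lower and 36.8% higher in HT29. COL6A2, a chain of collagen VI, had 0 and 0 counts in HT29 LPS and HT29 control, against 4847 and 4879 in HCT116 LPS and HCT116 control. The actin-binding gene CALD1 (-8.35, SE 0.16) and the matrix proteoglycan gene VCAN (-8.28, SE 0.14) were lower in HT29. The 8 higher genes were TNC, TGFBI, COL4A2, TPM1, NT5E, MSN, THBS1 and S100A4, which are named after their values were seen. Of these TNC, the matrix protein tenascin-C, had 1274 and 968 counts in HT29 LPS and HT29 control, against 4 and 4 in HCT116 LPS and HCT116 control. The gene TGFBI, a matrix protein induced by TGF-beta, had 1856 and 1454 counts in HT29 LPS and HT29 control, against 8 and 7 in HCT116 LPS and HCT116 control. The fibroblast list moved with the lines as well, with a summed level of 4.0 and 5.2 CPM in HT29 LPS and HT29 control, against 99.5 and 100.3 CPM in HCT116 LPS and HCT116 control, and in HCT116 nearly all of it was COL1A1. Its defining genes COL1A2, DCN, PDGFRA, THY1, POSTN and FAP were at 0 in all 4 libraries.

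**Figure D3:**
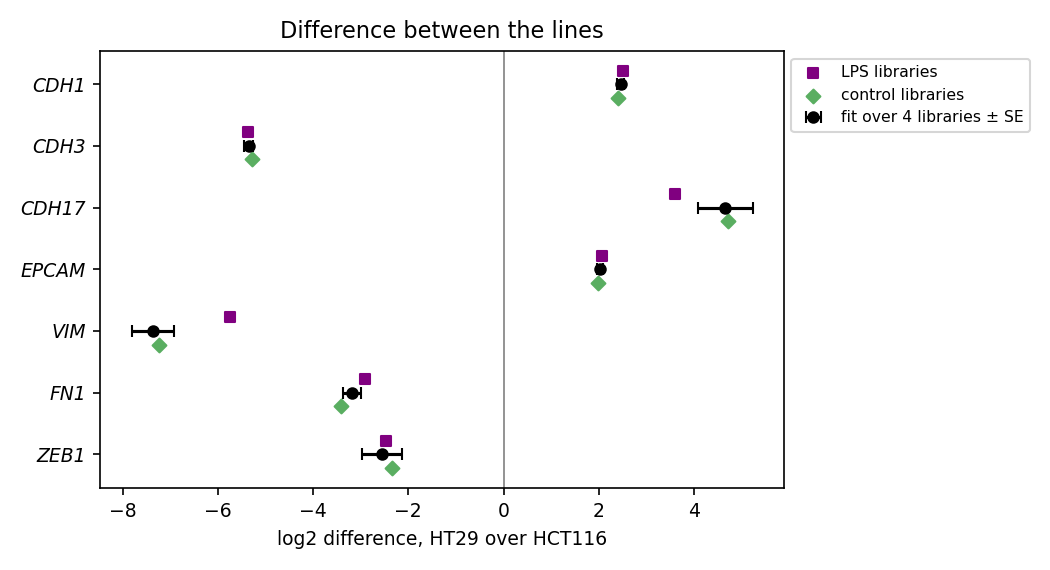
Log2 difference of HT29 over HCT116 for the 7 members tested. Black points are the edgeR fit over 4 libraries with bars of 1 SE, squares the 2 LPS libraries alone and diamonds the 2 control libraries alone, both from CPM with a prior count of 2, which draws low counts (VIM, CDH17) towards 0. CDH1, CDH17 and EPCAM lie above 0 and the other 4 below 0 in the fit and in both conditions. The direction of CDH17, VIM and ZEB1 was set by the filter.

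The 3 regulators ZEB1, SNAI2 and ZEB2 were scarce in both lines. ZEB1 (ENSG00000148516, hg38 chr10:31318495-31529814, plus strand) had 12 and 14 counts in HT29 LPS and HT29 control, against 77 and 96 counts in HCT116 LPS and HCT116 control. It passed the filter through HCT116 only. It was 5.84-fold higher in HCT116 (log2 fold change of HT29 over HCT116 -2.55, SE 0.42, edgeR adjusted p = 2.7e-05), yet its level there was only 1.46 and 1.80 TPM with LPS and in the control. The antisense gene ZEB1-AS1, which shares 396 exon bases with ZEB1, went the other way, with 47 and 75 counts in HT29 LPS and HT29 control, against 25 and 41 in HCT116 LPS and HCT116 control. ZEB1-AS1 was higher in HT29 by 1.07 on the log2 scale. Since it is not stated whether the counting used strand, reads of the 2 genes in the shared stretch cannot be told apart.

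SNAI2, which encodes the repressor Slug, had 0 and 0 counts in HT29 LPS and HT29 control, against 18 and 14 counts in HCT116 LPS and HCT116 control. Against the floor of 3 counts over the line, it was at least 9.47-fold lower in HT29, taking the 32 HCT116 counts as exact, and with their counting error the 95% interval of the fold began at 7.27. It stayed under the filter of 1 CPM and was not tested. ZEB2 (ENSG00000169554, hg38 chr2:144364364-144521057, minus strand), the close relative of ZEB1, had 2 and 3 counts in HT29 LPS and HT29 control, against 0 and 0 counts in HCT116 LPS and HCT116 control. It was read in HT29 alone, but its counts were at most 3, and its level in HCT116 was below what could be detected at this depth. ZEB2-AS1 was at 0 in all libraries.

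Among the other EMT transcription factors, 9 of 14 were tested, 6 were lower and 2 higher in HT29, and the median log2 fold change was -2.75. Of the 6 at 1 CPM or more in each line, 3 were lower and 2 higher, with a median of -0.60, and the other 3 passed through HCT116 only. The shares of all genes tested were 39.5% lower and 36.8% higher. SNAI1, which encodes the repressor Snail, had 33 and 31 counts in HT29 LPS and HT29 control, against 257 and 255 in HCT116 LPS and HCT116 control (log2 fold change -2.83, SE 0.25). The forkhead factor FOXC1 was also lower in HT29 (-2.75, SE 0.08). FOXQ1, a forkhead factor counted among EMT inducers in cancer cells, was higher in HT29, with 7025 and 6638 counts in HT29 LPS and HT29 control, against 93 and 93 in HCT116 LPS and HCT116 control (6.37, SE 0.09). TWIST1 had 0 and 0 counts in HT29 LPS and HT29 control, against 93 and 72 in HCT116 LPS and HCT116 control, and is named after its values were seen. The other higher gene, TCF3, at 0.37, is also named after its value was seen.

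Factors that maintain the epithelial state were higher in HT29 in 14 of 15 genes tested and lower in 0, with a median log2 fold change of 1.66. Among the 13 at 1 CPM or more in each line, 12 were higher and 0 lower, with a median of 1.39. Of all genes tested, 36.8% were called higher and 39.5% lower in HT29. FOXA1, a pioneer factor of endodermal epithelium, had 3604 and 3174 counts in HT29 LPS and HT29 control, against 102 and 82 in HCT116 LPS and HCT116 control (5.37, SE 0.10). Its relative FOXA2 (7.13, SE 0.30) and the epithelial ETS factor EHF (3.68, SE 0.07) were also higher in HT29. The gene not called was KLF4, at 0.19 (edgeR adjusted p = 0.12), named after its value was seen. Factors of the intestinal epithelium linked to CDH17 did not all differ in one direction. HNF4A, a nuclear receptor of endodermal epithelium, was higher in HT29 by 2.64 on the log2 scale (SE 0.11). CDX2, the caudal homeobox factor of intestine, was lower in HT29, with 39 and 18 counts in HT29 LPS and HT29 control, against 572 and 474 in HCT116 LPS and HCT116 control (-4.07, SE 0.22).

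**Figure D4:**
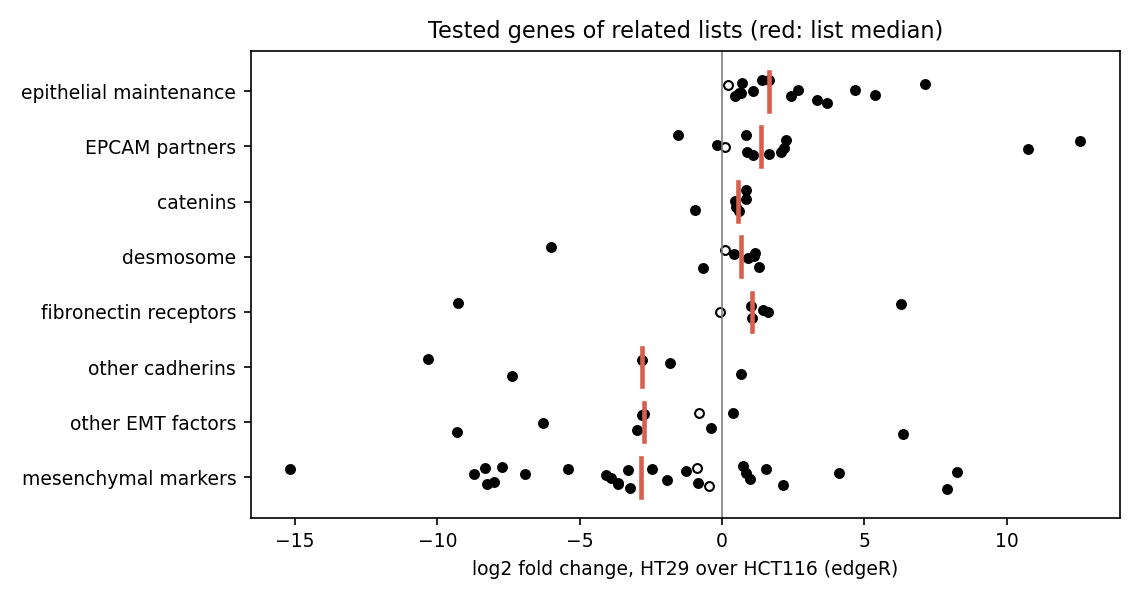
edgeR log2 fold change of HT29 over HCT116 for each tested gene of 8 related lists, 1 point per gene, filled where the adjusted p was under 0.05 and open where not, with the list median as a red bar. Medians run from 1.66 for epithelial maintenance factors to -2.86 for mesenchymal markers. Points beyond 8 in size rest on few counts in 1 of the lines, and the exact place of a gene at 0 depends on the fit.

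The miR-200 genes, looked at after their values were seen, were read through their precursor loci. In these libraries the counts are of fragments over the loci and not of mature miRNAs. On chromosome 1, MIR429 had 143 and 121 counts in HT29 LPS and HT29 control, against 26 and 12 in HCT116 LPS and HCT116 control, and was higher in HT29 by 2.99 on the log2 scale (SE 0.37, edgeR adjusted p = 8.9e-07). MIR200B had 51 and 35 counts in HT29 LPS and HT29 control, against 14 and 5 in HCT116 LPS and HCT116 control (2.37, SE 0.54, edgeR adjusted p = 6.9e-04). MIR429 and MIR200B averaged under 1 CPM in HCT116 and passed the filter through HT29 only, so their direction was set by the filter. MIR200A, with 29 and 22 counts in HT29 LPS and HT29 control, against 9 and 17 in HCT116 LPS and HCT116 control, was under the filter. The lncRNA ENSG00000272141, which lies just downstream on the same strand, had 1067 and 876 counts in HT29 LPS and HT29 control, against 277 and 206 in HCT116 LPS and HCT116 control. It was higher in HT29 by 2.18 (SE 0.13). On chromosome 12, MIR200C was at 0 in all libraries, MIR141 had 1 count in HT29 control alone, and their host MIR200CHG had 9, 10, 11 and 16 counts in HT29 LPS, HT29 control, HCT116 LPS and HCT116 control.

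The genes most like a member across the 4 libraries were found by the root mean square (RMS) difference of log2 CPM, each gene centred on its own mean, among genes that averaged at least 5 CPM. They were TMEM141 and IRF2BP2 for EPCAM (RMS 0.02 and 0.03), TFCP2L1 and STMN3 for CDH3 (0.02 and 0.04), TNNI2 and ENSG00000287263 for CDH17 (0.08 and 0.22), and DNAJC6 and TRIM46 for VIM (0.11 and 0.12). STMN3, for example, had 107 and 97 counts in HT29 LPS and HT29 control, against 4296 and 4577 in HCT116 LPS and HCT116 control. With 4 libraries and a difference between lines in most genes, such closeness is a description of the level by line.

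With LPS, no member was called over both lines. The comparison over both lines used the same edgeR test with the cell line as an added term, so that the 2 lines stood in for replicates. It called 0 of the 7 members tested and 0.186% of all genes (27 of 14523), of which 0.11% were higher and 0.0757% lower with LPS. At an unadjusted p under 0.05 there were 2 members, CDH1 with a log2 fold change of 0.18 (SE 0.07, adjusted p = 0.46) and EPCAM with -0.18 (SE 0.07, adjusted p = 0.50). Over all genes tested, 1071 of 14523 had an unadjusted p under 0.05 in this edgeR test. Of the members tested, DESeq2 gave an adjusted p to CDH1, CDH3 and EPCAM alone. It called EPCAM, at -0.18 (DESeq2 adjusted p = 0.032), and not CDH1, at 0.19 (DESeq2 adjusted p = 0.072). It called 1.72% of the 5231 genes to which it gave an adjusted p. The largest LPS fold change among the members in the edgeR fit, 0.63 for CDH17, had an SE of 0.51.

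Within each line there was 1 LPS and 1 control library, so ratios carry no test, and their 95% Clopper-Pearson intervals cover counting error only. In HT29, 5 members averaged at least 1 CPM, and in HCT116 6 did. Ratios were set against 0.58 on the log2 scale, the threshold the study used elsewhere. In HT29, 3.34% of the 13073 genes measured lay above it and 2.49% below -0.58, and in HCT116 3.71% of 14463 lay above and 2.50% below.

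CDH1 was 466 CPM in HT29 LPS and 398 in HT29 control, a log2 ratio of 0.23 with an interval of 0.18 to 0.27. It was 81.7 CPM in HCT116 LPS and 74.6 in HCT116 control, a log2 ratio of 0.13 with an interval of 0.03 to 0.23. Both intervals lay above 0, but 10.4% of the 7477 genes of at least 20 CPM in HT29 and 34.5% of the 8174 in HCT116 had a larger absolute ratio. E-cadherin transcript was no lower with LPS than in the control in either pair of libraries.

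EPCAM was 846 CPM in HT29 LPS and 936 in HT29 control, a log2 ratio of -0.15 with an interval of -0.18 to -0.11. It was 202 CPM in HCT116 LPS and 236 in HCT116 control, a log2 ratio of -0.22 with an interval of -0.28 to -0.16. Both intervals lay below 0, and 28.5% of such genes in HT29 and 12.8% in HCT116 had a larger absolute ratio. The SD of the ratios of these genes was 0.16 in each line.

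FN1 was the only member of at least 1 CPM in a line that lay past 0.58. It was 3.70 CPM in HT29 LPS and 2.36 in HT29 control, from 74 and 43 counts, a log2 ratio of 0.63 with an interval of 0.09 to 1.23. In HCT116, where it was more abundant, it was 28.4 CPM with LPS and 26.0 in the control, a log2 ratio of 0.12 whose interval of -0.04 to 0.29 included 0. The log2 ratio of CDH3 was -0.01 in HT29 cells, and in HCT116 cells it was 0.06. CDH17 had a log2 ratio of 0.33 in HT29, with an interval of -0.13 to 0.81. VIM and ZEB1, measured in HCT116 alone, had values of -0.16 and -0.18 with intervals that included 0. Counts of CDH2, SNAI2 and ZEB2 were too few to show a change with LPS, although CDH2 had 10 counts in HCT116 LPS and 1 in HCT116 control. For each of the 7 members tested, the side on which HT29 lay of HCT116 was the same in the LPS and in the control libraries. CDH17, VIM and ZEB1 passed the filter through 1 line only, so their side over both conditions was set by the filter.

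**Figure D5:**
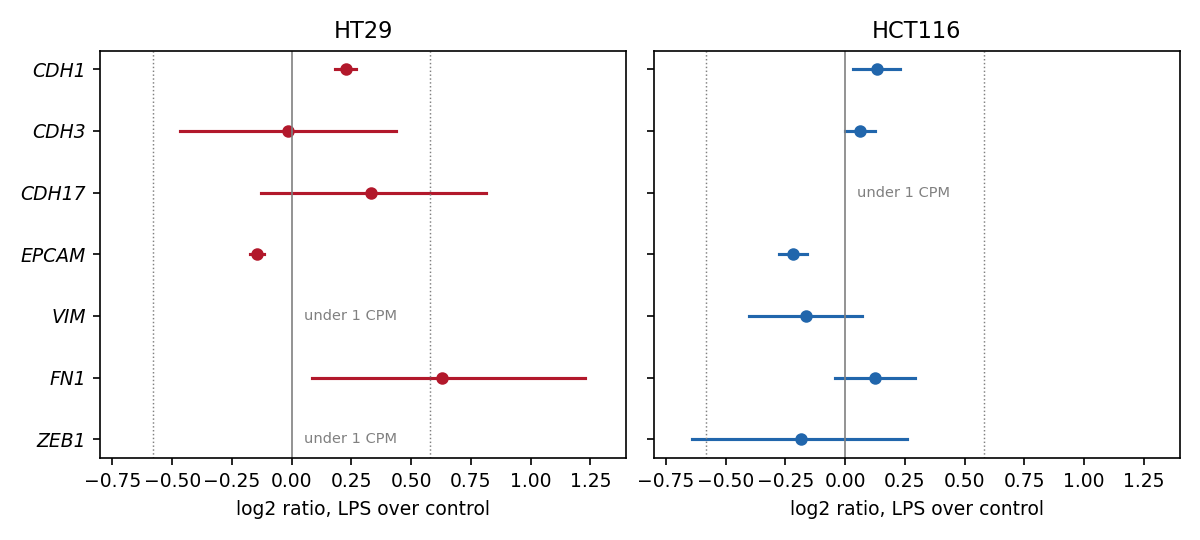
Log2 ratio of LPS over control in HT29 (left) and HCT116 (right) for the members that averaged at least 1 CPM in the line. Points are ratios of CPM after adding a prior count of 2, bars are 95% intervals of counting error, and dotted lines mark 0.58 and -0.58. CDH1 lies above 0 and EPCAM below 0 in both lines, and FN1 in HT29, at 0.63, is the only point past a dotted line.

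In the related lists the edgeR test of LPS over both lines called 0 of the 15 epithelial maintenance factors, 0 of the 9 other EMT factors, 0 of the 28 mesenchymal markers, 0 of the 6 catenins, 0 of the 8 desmosomal genes, 0 of the 12 EPCAM partners, 0 of the 7 fibronectin receptors and 0 of the 5 other cadherins, with 1, 0, 3, 1, 0, 0, 0 and 0 of them at an unadjusted p under 0.05. Over all 14523 genes tested, 1071 had an unadjusted p under 0.05. Mesenchymal markers had a median log2 ratio of 0.06 in HT29 over 20 genes and 0.08 in HCT116 over 26. AXL, a receptor kinase often raised in mesenchymal cancer cells, had 212 counts in HT29 LPS and 143 in HT29 control, a log2 ratio of 0.43 with an interval of 0.12 to 0.75, and -0.01 in HCT116. TAGLN, the actin-binding transgelin, had 158 counts in HCT116 LPS and 122 in HCT116 control, a log2 ratio of 0.50 with an interval of 0.15 to 0.86, and -0.35 in HT29 with an interval that included 0. The log2 ratio of FOXC1 was 0.25 in HT29, with an interval of 0.07 to 0.44, and 0.02 in HCT116. That of CDX2 was 0.91 in HT29, from 39 and 18 counts with an interval of 0.14 to 1.87, and 0.40 in HCT116, with an interval of 0.22 to 0.58.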

How the data were processed

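The values are raw read counts per gene in 1 table of 4 libraries that the authors deposited with gene lengths. Libraries were made from total RNA with the NEBNext Ultra kit. The submitters' notes name cutadapt 1.9, Trimmomatic 0.39, HISAT2 2.1.0 with hg38 and featureCounts 2.0.1. How strand and multiply aligned reads were treated, and which annotation release was used, is not given in the sources consulted. The paper used edgeR.

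Of the 61544 genes, 30392 had a count in any library and 61399 had a symbol in GENCODE 44, which also gave positions. Total counts ran from 19105058 to 21268959. No column belonged to no sample. Counts were normalized by TMM in edgeR 4.0.16 with R 4.3.3, and TPM was computed from the deposited gene lengths. These lengths exceed the longest transcript of each member by differing amounts, so TPM ratios between genes are approximate. The test took genes that averaged at least 1 CPM and called them at an adjusted p of 0.05. The test was checked on simulated data in which few genes were changed. A difference in most genes, as between these lines, was not simulated. Log2 ratios within a line used a prior count of 2, the 95% intervals are Clopper-Pearson, and a count of 0 was set to a floor of 3 counts over the line for bounds. Reads from PCR are not independent molecules, so intervals and floors cover counting error only. No member had another place in the genome that matched at least 50% of its transcript at 98% identity in minimap2 2.31.

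The 10 members and the 17 gene lists were chosen with earlier results of these data known. All members were named. One gene of the lists is not reported here. Of each other list the rule names up to 3 genes with the largest absolute line difference among called genes and up to 2 with the largest absolute LPS ratio, at 5 CPM or more on average, and of lists used as a check of cell type the summed level. For EPCAM, CDH3, CDH17 and VIM it names the 2 genes most alike, and for all members the antisense genes. The settings varied were the tool (DESeq2 1.42.0), the scaling (DESeq2 size factors, or library size alone), the filter (none, or 5 CPM), the LPS term (none), the libraries (each left out) and the prior count (0.5 or 5).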

Additional observations from a re-analysis of the deposited data

Results flagged for a closer look

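The members and the genes named beside them, 59 in all, were searched for LPS log2 ratios on opposite sides of 0 in the 2 lines with both counting intervals away from 0. No member and 3 other genes met this. All 3 were among the genes named for the largest LPS ratios of their lists, so they were picked on these same ratios. The share of all genes that would meet the rule was not computed. CTNND1, p120-catenin, which stabilises cadherins at the membrane, had 0.24 in HT29 (485 counts with LPS and 374 in the control, interval 0.04 to 0.44) and -0.39 in HCT116 (222 and 319 counts, interval -0.65 to -0.14). SDC4, a syndecan that binds fibronectin, had 0.28 in HT29 (4350 counts with LPS and 3257 in the control, interval 0.22 to 0.35) and -0.13 in HCT116 (1905 and 2277 counts, interval -0.22 to -0.04). CLDN3, a tight junction claudin, had -0.10 in HT29 (4944 counts with LPS and 4821 in the control, interval -0.16 to -0.04) and 0.37 in HCT116 (662 and 559 counts, interval 0.21 to 0.54). With 1 library per condition, no test of these 3 differences was made.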

How the results depend on the processing

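The 7 members called between the lines were called under DESeq2, its size factors, library size alone, no LPS term and with each library left out. With no filter SNAI2 was added, for 8 members, and at a minimum of 5 CPM 5 were left to be called, because CDH17 and ZEB1 fell under it. With each library left out and no LPS term, 4885 to 4971 genes were called higher and 5191 to 5520 lower in HT29, against 5351 and 5731. Library size alone moved the median log2 fold change of all genes between the lines to -0.18, against -0.05, and turned no member's direction. The LPS calls depended more on the setting, at 90 genes with DESeq2, 103 with no filter and 70 at 5 CPM, against 27, and DESeq2 called 1 member, against 0. For LPS, DESeq2 gave no adjusted p to CDH17, VIM, FN1 and ZEB1. Genes past 0.58 numbered 124 at 5 CPM and 8869 with no filter in HT29, against 762, and 130 and 7560 in HCT116, against 897. Of the other values of members, 143 kept their direction and their side of the threshold or stayed within their interval, though the fold of CDH17 and VIM moved by over 1.5 times with a library left out, and 1 passed the threshold (EPCAM in DESeq2). With 1 library per condition, no variation between cultures was measured, and counts under about 20 (CDH2, SNAI2, ZEB2, VIM and ZEB1 in HT29, and CDH17 in HCT116) set only coarse limits. Line and any difference in culture or preparation between the lines cannot be told apart.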

Other observations

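Outside the comparisons above, CDHR5, a protocadherin-related gene of the intestinal brush border, had 52 counts in HT29 LPS and 6 in HT29 control, against 3 in HCT116 LPS and 6 in HCT116 control. It was the only one of the 4 other cadherins measured in HT29 with a log2 ratio above 0.58. CDX1, an intestinal homeobox factor, had 17 counts in HT29 LPS and 3 in HT29 control, and 0 and 0 in HCT116. CDH7 had 22 and 32 counts in HT29 LPS and HT29 control, and 0 and 0 in HCT116. All 3 were chosen after their values were seen.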
